A study of Mus musculus with 15 samples.

Results

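The small proline-rich protein (*Sprr*) genes were described in the uteri of ovariectomized mice given estradiol (E2), estriol (E3), or saline. The 10 members were *Sprr1a*, *Sprr1b*, *Sprr2a*, *Sprr2b*, *Sprr2d*, *Sprr2e*, *Sprr2f*, *Sprr2g*, *Sprr2i*, and *Sprr3*, and their probes were taken as those whose gene name in the scanner files was a member's symbol. This gave 10 probes for 9 of the 10 genes, out of 41174 probes for 27962 gene names on the array. No probe carried the name *Sprr2i*. Of the 10 probes, 9 (8 genes) passed the filter on dim signals, and the *Sprr1b* probe did not. The family was chosen by its rise over saline at 24 hr, where *Sprr2d* and *Sprr1a* were among the probes with the largest increases, so its differences from saline are given below as a description without p-values.

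The 15 arrays held 3 samples for each of 5 groups, all uteri of ovariectomized adult females (10 weeks or older) rested for 10 to 14 days after surgery. Mice received an intraperitoneal injection of 100 μL saline, alone (collected at 24 hr) or with 250 ng E2 or 250 ng E3 (collected at 2 or 24 hr). The mice given saline, E3, or E2 for 24 hr were of strain C57bl6/J, and those given E2 for 2 hr were of strain C57bl6/Jx129 with the Esr1 genotype WT. The arrays of E2 at 2 hr were also on slides of their own and read on another scanner on another day, so at 2 hr strain, scanner, and compound cannot be told apart. At 24 hr the saline, E2, and E3 arrays shared no slide with each other, so slide and group cannot be told apart there. There was no saline group at 2 hr here, and the 24-hr saline arrays were the reference for both times. The sample descriptions say that each uterus was homogenized singly, whereas the methods describe pooled tissue, so the spread between arrays may not be that between animals. E3 has the structure of E2 with an additional hydroxyl group.

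Small proline-rich proteins are precursors of the cornified envelope, the layer of cross-linked protein beneath the membrane of squamous epithelial cells. Transglutaminases join them through glutamine and lysine residues at their ends to loricrin, involucrin, and other envelope proteins, and their central part is a short proline-rich repeat. The genes lie side by side in the epidermal differentiation complex. In the rodent uterus, *Sprr2* transcripts are known to be induced by estrogen in the epithelium.

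The probe sequences bear on how far each value belongs to 1 gene, since the *Sprr2* genes are close copies of each other. All 10 member probes lay on chromosome 3 of the mm7 build used in the array annotation. The probes of *Sprr2b* (chr3:92423564-92423623), *Sprr2e* (chr3:92458962-92459021), and *Sprr2g* (chr3:92480800-92480859) were the member probes that held the run CCTTGTCC, and their 60 bases are shown with the longest run shared with another *Sprr* probe in capitals.
Sprr2b: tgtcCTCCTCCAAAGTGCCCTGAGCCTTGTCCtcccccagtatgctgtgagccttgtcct
Sprr2e: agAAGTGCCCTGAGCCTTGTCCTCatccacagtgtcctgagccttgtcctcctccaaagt
Sprr2g: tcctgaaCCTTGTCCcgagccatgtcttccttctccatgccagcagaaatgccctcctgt
The *Sprr2b* probe shared a run of 28 bases with the *Sprr2k* probe and the *Sprr2e* probe a run of 22 bases with the *Sprr2b* probe. The longest run of the *Sprr2g* probe with another *Sprr* probe was 8 bases. The run CCTTGTCC (8 bases) was taken as the longest one common to these 3 probes, so its presence in them was fixed by that choice. It stood 2 times in each of the *Sprr2b* and *Sprr2e* probes and 1 time in the *Sprr2g* probe. It was also in 35 of 41152 probes of other genes (0.0851%). The annotation of the *Sprr2e* probe also listed the transcript of *Sprr2i*. Whether other *Sprr2* probes carry *Sprr2i* signal was not tested.

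The other member probes held no copy of that run, and the first 30 of their 60 bases are shown for those on which the results rest.
Sprr1a: gctcctgagcctcttaacattgcccaaagt
Sprr2d: ttgccaaaaactctcaatcacctttggttt
Sprr2f: atgggtcttgttccattgttcagtatgaca
Sprr2a dim probe: agaagtgaccacccaacaggtgaaggcctc
Sprr2a bright probe: tacagttgatgtgccagcctgcaccaccta
Their longest run shared with another *Sprr* probe was 10 bases for *Sprr1a* (chr3:92590070-92590129, minus strand) and *Sprr2d* (chr3:92446836-92446895) and 7 bases for *Sprr2f* (chr3:92472374-92472433). The probes of *Sprr2a* lay 2.45 kb apart (chr3:92252807-92252866 and chr3:92255256-92255315) and are called its dim and its bright probe by their signal. The dim probe shared at most 8 bases with another *Sprr* probe, and the bright probe at most 9. The bright probe also shared 19 bases with a probe of a gene outside the family, where the other member probes reached at most 15. These runs describe the letters of the probes; cross-hybridization itself was not measured.

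Expression is given as the log2 processed intensity relative to the 75th percentile of the array (normalized log2), and differences between groups are differences on that scale. The lowest value of a probe well above background was -8.29 to -7.76 on the 15 arrays. Uterine epithelium markers (8 of 8, among them *Krt8*, *Krt18*, and *Epcam*) were well above background on every array, as were those of stroma (6 of 6) and smooth muscle (5 of 5). In whole uteri, a change in the number of cells of a type and a change in RNA per cell cannot be told apart. Liver markers summed to 5.25 to 19.6 times the array's 75th percentile on the saline arrays and to at most 0.506 on the 24-hr treated arrays. At 2 hr they summed to 0.0326 to 0.0424 with E2 and 1.28 to 3.28 with E3, and 7 of 7 were called higher in E3 than in E2, beside 1.54% of all probes. Exocrine pancreas markers summed to 275 on E3 2 hr replicate 2 and to 112 on E2 24 hr replicate 2, against at most 4.40 on the other arrays. The part of these signals in the *Sprr* values was not tested.

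*Sprr1a*, which encodes an envelope precursor induced in stressed and squamous epithelium, was low on the saline arrays, with normalized log2 values of -4.54, -4.94, and -4.74 for replicates 1, 2, and 3. It was -3.36, -2.92, and -1.93 after 2 hr of E2 and -3.30, -3.23, and -3.31 after 2 hr of E3. At 24 hr, E2 arrays were at 1.68, 1.43, and 1.86. E3 arrays at 24 hr were at -1.46, 0.96, and -1.15. Every treated array thus lay above the 3 saline arrays, and E3 replicate 2 stood apart from the other two E3 arrays at 24 hr. The mean difference from saline was 2.00 (SE 0.51) for E2 and 1.46 for E3 at 2 hr, and 6.39 for E2 and 4.19 for E3 at 24 hr. With normexp background correction the E2 difference at 24 hr was 5.74.

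At 24 hr *Sprr2d* had the largest difference from saline of the members, except for E2 with normexp background correction, and it started near background. The saline arrays were at -7.71, -6.92, and -7.31, processed intensities of 14.3 to 31.3. E2 arrays at 2 hr were at -7.36, -7.62, and -7.02, and E3 arrays at 2 hr were at -7.85, -6.80, and -7.42. At 2 hr both compounds overlapped saline, with differences of -0.02 for E2 and -0.04 for E3 (SE 0.52). At 24 hr E2 arrays were at -1.02, 0.49, and 0.37 and E3 arrays at -3.50, -1.36, and -2.41. The differences from saline were then 7.26 for E2 and 4.89 for E3. With normexp background correction, which raises dim signals, they were 5.30 and 3.52. The E2 value was then below those of *Sprr1a* (5.74) and the dim *Sprr2a* probe (5.57).

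*Sprr2f* encodes another of the *Sprr2* envelope precursors. Its saline arrays were at -1.58, -1.58, and -1.42. At 2 hr it was at -0.78, -0.71, and 0.66 with E2 and -0.27, 0.04, and -0.43 with E3, differences of 1.25 for E2 and 1.31 for E3 (SE 0.36) that were not called. Without E2 2 hr replicate 3 the E2 difference was 0.78. At 24 hr E2 arrays reached 4.56, 4.38, and 4.75, intensities of 70371 to 102648. E3 arrays reached 1.80, 2.95, and 2.77. The differences from saline were 6.09 for E2 and 4.03 for E3, with no overlap between any of the 3 groups.

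The dim *Sprr2a* probe followed the same course. It was at -5.82, -5.55, and -6.26 with saline, at 0.54, 0.59, and 0.94 after 24 hr of E2, and at -2.31, -0.91, and -1.98 after 24 hr of E3. The differences were 6.57 and 4.14 at 24 hr, and 1.11 and 0.68 (SE 0.32) at 2 hr for E2 and E3. With normexp background correction the E2 differences were 5.57 at 24 hr and 0.61 at 2 hr. The bright probe of the same gene did not move in this way: it was at 5.40 to 5.96 with saline, intensities of 180395 to 186709, and its differences from saline at 24 hr were 0.00 for E2 and 0.03 for E3 (SE 0.13). The 2 probes of *Sprr2a* thus disagreed, and a rule that takes the brightest probe of a gene would report no rise. The bright probe read intensities of 169125 to 261525 over the 15 arrays with no spot marked as saturated. Which transcript it reads was not settled here, and whether its signal could still rise at this level was not tested. The bright probe correlated with the mean of the other members at r = -0.06 over the 15 arrays, where the dim probe gave r = 0.99 (a description over arrays that share groups and slides).

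At 24 hr the 3 probes that held the run CCTTGTCC had smaller differences from saline than *Sprr1a*, *Sprr2d*, *Sprr2f*, and the dim *Sprr2a* probe. *Sprr2e* was at -2.50, -2.64, and -2.87 with saline, at 0.05, 0.14, and 0.36 after 24 hr of E2, and at -1.80, -1.22, and -1.50 after 24 hr of E3, differences of 2.85 and 1.17 (SE 0.17). *Sprr2g*, a transcribed pseudogene in the RefSeq annotation, was at -4.20, -4.24, and -4.54 with saline, at -1.30, -1.37, and -1.01 with E2, and at -3.48, -3.10, and -3.03 with E3 at 24 hr, differences of 3.1 and 1.12 (SE 0.15). *Sprr2b* was at -0.81, -1.03, and -1.14 with saline, at 0.62, 0.80, and 1.01 with E2, and at -0.54, -0.15, and -0.32 with E3 at 24 hr, differences of 1.80 and 0.65 (SE 0.21). In all 3 the saline, E3, and E2 arrays at 24 hr were ordered without overlap. At 2 hr *Sprr2g* differed from saline by 0.83 with E2 and 0.85 with E3, and *Sprr2e* by 0.53 and 0.39. *Sprr2b* differed by 1.15 with E2 and 0.34 with E3.

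The remaining members gave little signal. *Sprr3*, whose product is an envelope precursor of internal squamous epithelia such as the esophagus, was well above background on only 2 of the 15 arrays, both of E2 at 24 hr, where the 3 values were -7.71, -8.30, and -7.42. Its saline arrays lay at -9.72 to -8.94 and its E3 arrays at 24 hr at -9.86 to -8.93. E2 at 24 hr was at least 1.24-fold above saline by this bound (the mean of the E2 arrays against the lowest signal well above background on each saline array), and the measured difference was 1.46. With normexp background correction the difference was 0.19 (SE 0.70), less than this bound. *Sprr1b* was not well above background on any array, with normalized log2 values from -10.5 to -8.17, and was not tested. *Sprr2i* had no probe of its own.

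**Figure D1:**
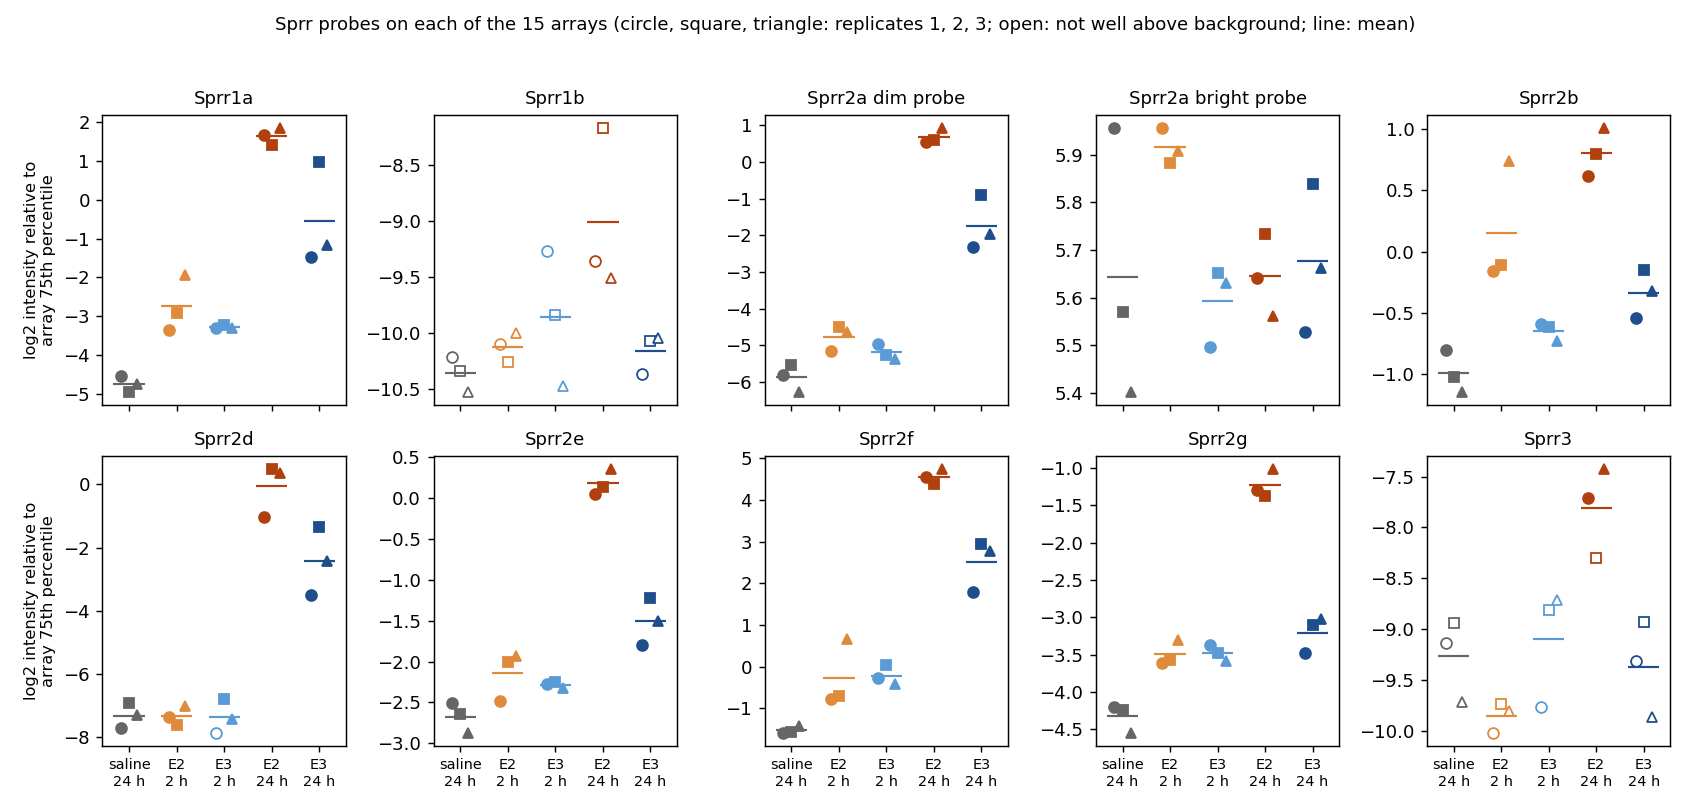
Normalized log2 intensity (y axis, a scale of its own in each panel) of the 10 *Sprr* probes on each array, by group (x axis); symbols give the replicate, open symbols a signal not well above background, and lines the mean of 3 arrays. In 7 panels the 24-hr arrays are ordered E2, E3, and saline from the top without overlap (9.36% of all tested probes have this order), while the bright *Sprr2a* probe stays between 5.40 and 5.96.

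A probe was called when p was below 0.001 in limma's moderated test and the change was at least 2-fold. At 24 hr, 8 of the 9 tested probes were called higher with E2, where 6.93% of 34776 probes were, and 6 of 9 were called higher with E3, where 1.85% of all probes were. These counts come from the contrast that drew attention to the family, and nothing is read from them. *Sprr3* passed the filter through the E2 24-hr arrays alone, and without it the counts were 7 of 8 and 6 of 8. The median difference over these 8 probes was 4.59 with E2 and 2.60 with E3 (3.1 and 1.17 with *Sprr3*), beside -0.06 and -0.01 over all tested probes. At 2 hr, 1 of 9 (*Sprr2b*) was called higher with E2, beside 10.6% of all probes, and 0 of 9 with E3, beside 4.68%. Without E2 2 hr replicate 3 *Sprr2b* differed by 0.86 and was not called. With a Benjamini-Hochberg adjusted p under 0.05 in place of 0.001, 4 were called higher with E2, beside 11.6% of all probes, and 2 with E3, beside 5.29%. No member was called lower at 2 hr in limma, where 10.7% of all probes were called lower with E2 and 9.11% with E3. The 2-hr medians without *Sprr3* were 0.97 with E2 and 0.53 with E3, beside -0.08 and -0.11 over all probes.

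**Figure D2:**
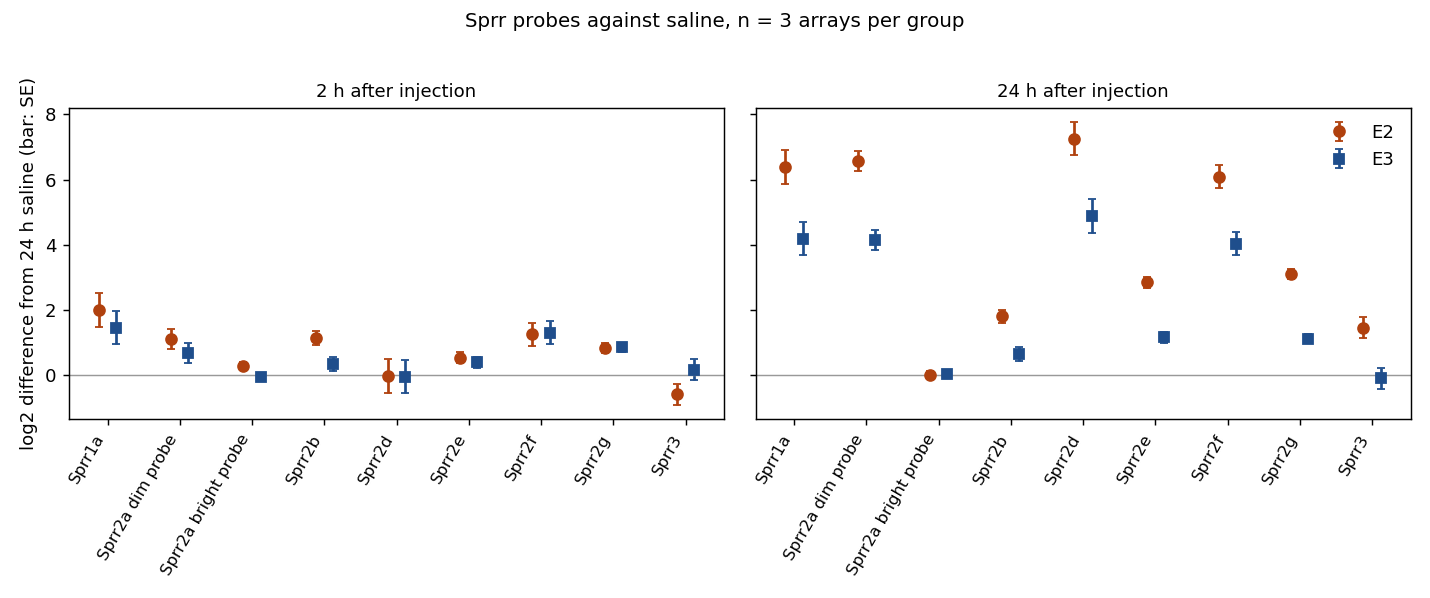
Log2 difference from the 24-hr saline arrays (y axis, bars give the SE) of the 9 tested probes at 2 hr (left) and 24 hr (right), circles for E2 and squares for E3. At 2 hr the differences lie between -0.05 and 2.00 apart from *Sprr3*, which was not well above background in these groups, and at 24 hr the E2 points of 8 probes lie above those of E3.

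Between 2 and 24 hr *Sprr2d* differed by 7.28 with E2 and 4.94 with E3. The 24-hr minus 2-hr differences of *Sprr1a* and *Sprr2f*, whose arrays at 2 hr lay above saline without a call, were 4.39 and 4.84 with E2 and 2.73 each with E3. For *Sprr2g* the difference was 2.26 with E2 and 0.27 with E3, and its E3 values at 24 hr (-3.48 to -3.03) overlapped those at 2 hr (-3.59 to -3.37). These time differences are descriptions with no test between members, and the E2 values also cross the change of strain and scanner.

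E3 was compared with E2 directly, at the same time and dose. This contrast was not the one that drew attention to the family, but it shares the E2 and E3 24-hr arrays with it. The 9 probes were compared at 2 times, and p-values were adjusted over all probes tested. *Sprr3* is left out of the counts that follow, since it passed the filter through the E2 24-hr arrays alone. At 24 hr, 6 of the other 8 probes were called lower with E3 than with E2, where 2.07% of all probes were, and 0 were called higher, where 2.77% of all probes were. The median E3 minus E2 difference was -2.02, beside 0.06 over all probes. E3 arrays all lay below the E2 arrays for 7 of the 8 probes, as they did for 21.8% of all probes. The smallest gap between the lowest E2 array and the highest E3 array among these 7 was 0.34, for *Sprr2d*.

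*Sprr2g* was lower with E3 by the clearest margin, with an E3 minus E2 difference of -1.98 (95% interval -2.30 to -1.65, adjusted p = 6.2e-06 in limma). *Sprr2e* followed at -1.69 (-2.05 to -1.32, adjusted p = 3.0e-05 in limma). The dim *Sprr2a* probe had the largest difference, -2.42 (-3.11 to -1.74, adjusted p = 1.5e-04 in limma). *Sprr2f* differed by -2.06 (-2.84 to -1.27, adjusted p = 9.8e-04 in limma) and *Sprr2b* by -1.15 (-1.60 to -0.69, adjusted p = 0.0012 in limma). These 5 calls held under each of 27 alternative settings, which include leaving out single arrays, but with normexp background correction the *Sprr2g* difference was -1.27 (adjusted p = 0.0052 in limma).

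The other members at 24 hr changed their call between settings. *Sprr2d* differed by -2.37 (-3.49 to -1.25, adjusted p = 0.0037 in limma), and its call was lost in 8 of 27 settings, where the differences ranged from -2.90 to -1.78 over all 27. *Sprr1a* differed by -2.20 (-3.32 to -1.08, adjusted p = 0.0055 in limma), with a raw p of 0.00105 that missed the threshold. Without E3 24 hr replicate 2 it differed by -2.96 (adjusted p = 1.3e-04 in limma) and was called, as it was in 5 further settings, 4 of which left no array out. *Sprr3* was called at -1.56, but the bound gave only at least 1.04-fold, and with normexp background correction the sign turned (1.06). The bright *Sprr2a* probe differed by 0.03 (-0.25 to 0.31).

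At 2 hr none of the 8 probes was called lower with E3 than with E2 in limma, where 5.83% of all probes were. The largest differences were those of *Sprr2b*, -0.80 (-1.26 to -0.35, adjusted p = 0.0084 in limma), *Sprr3*, 0.76 (0.04 to 1.47, not well above background on any array of either group), and *Sprr1a*, -0.54 (-1.66 to 0.58). Without E2 2 hr replicate 3 *Sprr1a* differed by -0.14. For *Sprr2g* the interval was -0.31 to 0.34 and for *Sprr2e* -0.51 to 0.22, so differences of 2-fold lay outside both. For *Sprr2d* it was -1.15 to 1.10, which leaves room for a difference of 2-fold either way. The 2-hr contrast also crosses the change of strain, slide, and scanner.

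Whether E3 fell further behind E2 at 24 hr than at 2 hr was tested as the E3 minus E2 difference at 24 hr minus that at 2 hr. Without *Sprr3* it was called lower for 3 of 8 probes, beside 4.39% of all probes. These were *Sprr2g* at -1.99 (SE 0.21, adjusted p = 2.6e-05 in limma), *Sprr2e* at -1.54 (SE 0.24, adjusted p = 3.0e-04 in limma), and the dim *Sprr2a* probe at -1.99 (SE 0.45, adjusted p = 0.0032 in limma). The call of the dim *Sprr2a* probe was lost in 12 of the 15 fits that left out 1 array (adjusted p = 0.0043 to 0.0094 in limma). With normexp background correction *Sprr2g* was at -1.18 (adjusted p = 0.035 in limma) and lost its call. *Sprr3*, at -2.32, rests on values not well above background in 3 of the 4 groups. *Sprr2f* at -2.11 (adjusted p = 0.0050 in limma) and *Sprr2d* at -2.35 (adjusted p = 0.020 in limma) missed the threshold. *Sprr2b*, at -0.34 (interval -0.98 to 0.30), was already at -0.80 in E3 against E2 at 2 hr. With *Sprr3* counted, 4 of 9 were called with all arrays. With E3 24 hr replicate 2 left out 7 of 9 were called, beside 4.43% of all probes. With E2 2 hr replicate 1, E3 2 hr replicate 2, E3 2 hr replicate 3, or E2 24 hr replicate 3 left out, 2 of 9 were. In these last fits 1270 to 1435 of all probes were called lower, of 34765 or 34766 tested.

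**Figure D3:**
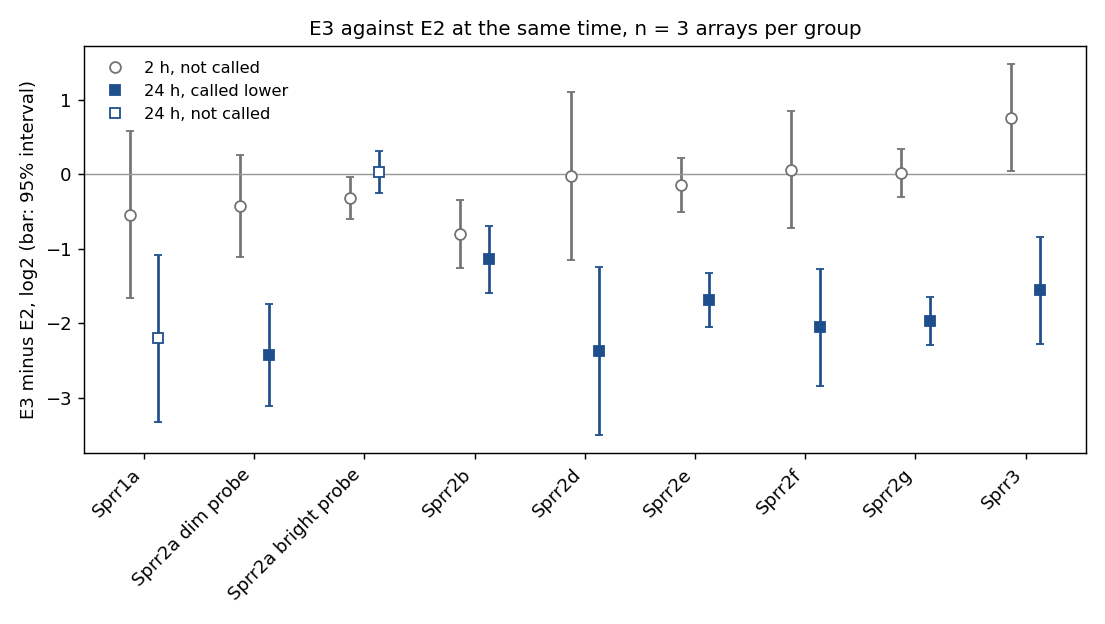
E3 minus E2 log2 difference (y axis, bars give the 95% interval) of the 9 tested probes, circles at 2 hr and squares at 24 hr, filled where called. At 24 hr 8 of 9 squares lie between -2.42 and -1.15, and the bright *Sprr2a* probe lies at 0.03.

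On the log2 scale, E3 reached 65.5% of the E2 difference from saline at 24 hr for *Sprr1a*, 63.1% for the dim *Sprr2a* probe, 67.4% for *Sprr2d*, and 66.2% for *Sprr2f*. It reached 36.4% for *Sprr2b*, 40.8% for *Sprr2e*, and 36.2% for *Sprr2g*. Among these 7 probes the lower shares were those of the 3 that held the run CCTTGTCC, which also had the smaller differences from saline. No share is given for the bright *Sprr2a* probe, whose E2 difference was 0.00, or for *Sprr3*, which was not well above background with saline or E3. The run was defined from these 3 probes, so their holding it is no separate result. The grouping was noticed in these values and was not tested.

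In RefSeq (GRCm38.p6) the family forms 1 run of 17 genes on chromosome 3, from *Sprr2a1*, *Sprr2a2*, and *Sprr2a3* through *Sprr2b*, *Sprr2d*, *Sprr2e*, *Sprr2f*, and *Sprr2g* to *Sprr1b*, *Sprr3*, *Sprr1a*, and *Sprr4*. *Sprr1b* and *Sprr3*, at or near background, lie directly before *Sprr1a*, which differed from saline by 6.39 with E2 at 24 hr. The other *Sprr* genes with a probe were *Sprr2h*, *Sprr2j*, *Sprr2k*, and *Sprr4*. *Sprr2h* and *Sprr4* did not pass the filter on dim signals. *Sprr2j* (a transcribed pseudogene in RefSeq) and *Sprr2k* were called higher with E2 at 2 hr, by 1.05 and 1.0, and at 24 hr, by 2.45 and 2.04, and lower with E3 than with E2, by -1.50 (adjusted p = 1.5e-05 in limma) and -1.27 (adjusted p = 5.2e-05 in limma). Both probes hold the shared run CCTTGTCC once each, and their differences were of the size of *Sprr2b* and *Sprr2e*.

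**Figure D4:**
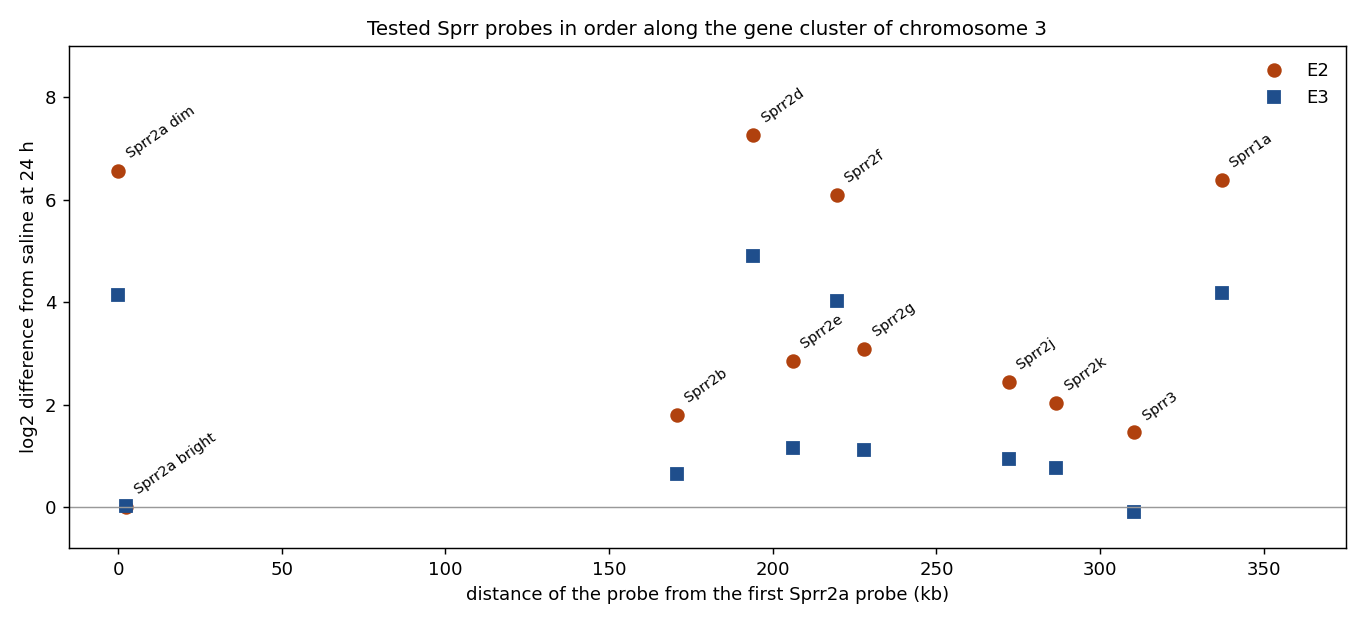
Log2 difference from saline at 24 hr (y axis) of the tested *Sprr* probes against their distance from the first *Sprr2a* probe (x axis, kb), circles for E2 and squares for E3. Differences above 6 with E2 were seen at both ends of the cluster (the dim *Sprr2a* probe and *Sprr1a*) and in its middle (*Sprr2d* and *Sprr2f*).

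The start regions of 4 of the members called higher with both compounds at 24 hr are shown. *Sprr2a* (dim probe) and *Sprr2g* were also called higher with both and are not among them. The 250 bases before the start of 4 members are given from RefSeq (GRCm38.p6), 5′ to 3′ along each gene, with matches to TGANTCA (the AP-1 motif), ATGCAAAT (the octamer motif, here read on the opposite strand), and TATAAA in capitals.
Sprr2d (chr3:92338890-92339139, plus strand): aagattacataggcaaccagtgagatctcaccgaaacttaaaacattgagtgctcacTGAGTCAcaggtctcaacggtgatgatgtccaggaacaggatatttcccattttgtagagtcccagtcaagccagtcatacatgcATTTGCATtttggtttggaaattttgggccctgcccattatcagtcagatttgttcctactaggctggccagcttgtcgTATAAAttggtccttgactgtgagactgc
Sprr2e (chr3:92351893-92352142, plus strand): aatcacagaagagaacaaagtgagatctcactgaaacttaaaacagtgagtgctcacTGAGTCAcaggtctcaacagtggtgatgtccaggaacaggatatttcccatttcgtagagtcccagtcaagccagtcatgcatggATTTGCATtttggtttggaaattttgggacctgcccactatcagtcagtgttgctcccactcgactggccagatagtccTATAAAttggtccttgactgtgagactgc
Sprr2f (chr3:92364937-92365186, plus strand): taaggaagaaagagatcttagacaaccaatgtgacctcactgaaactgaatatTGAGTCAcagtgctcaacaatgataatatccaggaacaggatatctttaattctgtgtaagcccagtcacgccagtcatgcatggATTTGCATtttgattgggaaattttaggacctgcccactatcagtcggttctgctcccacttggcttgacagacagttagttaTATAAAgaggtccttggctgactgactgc
Sprr1a (chr3:92485882-92486131, minus strand): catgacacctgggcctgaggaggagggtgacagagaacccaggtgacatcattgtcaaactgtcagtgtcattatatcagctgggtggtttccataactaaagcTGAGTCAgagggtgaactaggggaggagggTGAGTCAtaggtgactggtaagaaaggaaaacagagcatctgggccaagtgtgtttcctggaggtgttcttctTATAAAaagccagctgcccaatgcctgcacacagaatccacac
The upstream bases of *Sprr2d* and *Sprr2e* were identical at 225 of 250 positions when aligned (90.0%), and those of *Sprr2e* and *Sprr2f* at 198 (79.2%). Promoters were searched on both strands over 300 bases (250 before to 50 after the start) for 11 promoters of member genes, with *Sprr2a* in its 3 RefSeq copies and no entry for *Sprr2g*. TGANTCA was found in 7 of the 11, beside 7.81% of 32817 promoters of all genes, and ATGCAAAT in 5, beside 1.74%. TGANTCA was in the promoter of *Sprr1b*, whose probe was at background, and in none of the 3 *Sprr2a* copies. Those copies held no match to ATGCAAAT or TATAAA either. In *Sprr2b*, *Sprr2d*, *Sprr2e*, and *Sprr2f* the AP-1 match began 193 to 197 bases before the start, the octamer match 108 to 112 bases, and TATAAA 29 bases. TATAAA was found in 8 of 11, beside 13.6%. The full estrogen response element (GGTCA and TGACC with 3 bases between them) was in none of the 11 (0.0701% of all promoters), and GGTCA, which is a part of it, was in 2 (40.5%). CACCC was in 6 (57.5%), GAGGAAGT in 1 (3.20%), and GGGCGG in 0 (35.6%). These are matches of letters only. Since several *Sprr2* promoters are similar in sequence (*Sprr2d* and *Sprr2f* at 74.8%), the matches in them are not independent. The *Sprr2a1* promoter was less like that of *Sprr2d* (60.8%).

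Factors known to act on *Sprr* promoters or on squamous differentiation were listed as 23 genes, of which 21 were tested. At 2 hr, 8 of the 21 were called higher with E2 (10.6% of all probes were) and 8 with E3 (4.68%). The list medians were 0.78 and 0.76. The genes called higher, named here for their 2-hr values, include *Fos* (5.74 with E2 and 5.29 with E3), *Fosl1* (5.0 and 4.29), *Junb* (2.33 and 2.18), and *Jund* (1.81 and 1.63), which encode subunits of AP-1. *Ehf*, an epithelial Ets factor, was called lower with E3 (-1.0). *Klf4*, an epithelial Krüppel-like factor, was called higher by 1.75 with E2 and 1.73 with E3, and *Elf3*, an epithelial Ets factor, by 1.78 and 1.65. At 24 hr 2 of the 21 were called higher with E2, *Elf3* (2.48, SE 0.14) and *Fosl1* (1.01), and *Jun* was called lower (-1.17), beside 6.93% of all probes called higher and 11.1% lower. With E3 at 24 hr only *Elf3* was called, at 1.02, beside 1.85% of all probes called higher. E3 was called lower than E2 at 24 hr for *Elf3*, at -1.45 (adjusted p = 3.0e-05 in limma), and *Klf4*, at -1.09 (adjusted p = 9.3e-05 in limma). At 2 hr the E3 minus E2 differences of these 2 genes were -0.12 and -0.01 (SE 0.14 and 0.13).

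Among the other proteins of the cornified envelope and the epidermal differentiation complex, 22 of 41 listed genes were tested, with a median difference at 24 hr of 0.41 for E2 and 0.25 for E3. With E2 at 24 hr 3 were called higher, *Ivl* (involucrin, at least 4.09-fold), *Rptn* (repetin, at least 10.9-fold), and *Lce3c* (a log2 difference of 1.46), and 1 lower, *Tchh* (trichohyalin, -1.26), where 6.93% of all probes were called higher and 11.1% lower. *Ivl* and *Rptn* were not well above background on any saline array, so their changes are given as bounds. With E3 at 24 hr *Ivl* was called higher (at least 1.42-fold, with 1 of 3 E3 arrays well above background) and none lower, where 1.85% of all probes were called higher and 1.96% lower. *Lor*, which encodes loricrin, differed by 0.33 with E2. None of the 22 was called in E3 against E2 at 24 hr in limma, with *Ivl* at -1.53 (adjusted p = 0.015 in limma) and *Rptn* at -2.35 (adjusted p = 0.017 in limma). Since *Ivl* was well above background on only 1 of 3 E3 arrays, its value here is no measured size. Of 7 tested transglutaminases (medians 0.70 and 0.57), 0 were called higher and 1, *Tgm4*, lower with both compounds at 24 hr (-1.56 with E2 and -1.16 with E3). *Tgm1*, the main transglutaminase of keratinocytes, differed by 0.88 with E2 and 0.76 with E3 without a call. Of 13 S100 genes of the complex (medians 0.60 and 0.41), *S100a14* was called higher (2.55 and 2.37) and *S100a7a* lower (-2.23 and -1.47) with E2 and E3. The shares of all probes given above for the envelope proteins hold for both of these lists.

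The 5 genes outside the family whose values followed the mean of the members most closely over the 15 arrays were *Copg1*, *Gnb1*, *Fam3b*, *Krt75*, and *Ivl*, with Pearson r of 0.987, 0.982, 0.981, 0.979, and 0.978 among 34296 probes compared. The mean took the bright *Sprr2a* probe, and with the dim probe in its place the first 4 stayed the same and *Ckmt1* took the place of *Ivl* (r = 0.978). The arrays share groups, and r is a description. *Ivl* was well above background on 0 of 3 saline arrays and 1 of 3 E3 arrays at 24 hr, so its r rests in part on dim values. *Copg1*, which encodes a subunit of the vesicle coat, moved from 2.88 with saline to 3.94 after E2 and 3.43 after E3 at 24 hr. *Fam3b*, a secreted cytokine-like protein, moved from -6.74 to -1.29 and -3.85.

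Of 9 markers of stratified squamous epithelium, 5 were called higher with E2 at 24 hr, beside 6.93% of all probes, and 1 with E3, beside 1.85%. *Krt10* was at 0.83 with saline and 0.82 with E2 at 24 hr, and *Trp63* at -1.30 in both. The 9 markers (*Krt5*, *Krt14*, *Krt1*, *Krt10*, *Krt6a*, *Krt13*, *Krt4*, *Trp63*, and *Dsg3*) summed to 2.85 to 5.05 times the array's 75th percentile on the saline arrays and to 28.3, 50.9, and 36.9 on the E2 arrays at 24 hr. On the E3 arrays at 24 hr they summed to 9.21, 63.9, and 7.15, with replicate 2 far above the others. At 2 hr they summed to 2.26 to 2.91 with E2 and 3.16 to 8.69 with E3. *Krt6a* was not well above background with saline (-10.5 to -8.85) and was at -6.70, -0.39, and -7.37 on these 3 arrays. E3 24 hr replicate 2 was also the highest of the 3 for 8 of the 9 *Sprr* probes. Without it, the E3 difference from saline was 3.43 for *Sprr1a*, 4.36 for *Sprr2d*, and 3.81 for *Sprr2f*. The count of probes called lower with E3 than with E2 at 24 hr was then 8 of 9, *Sprr3* included, beside 2.2% of all probes. Between 7 and 9 of the 9 markers were well above background on every array, and their part in the *Sprr* values was not tested.

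**Figure D5:**
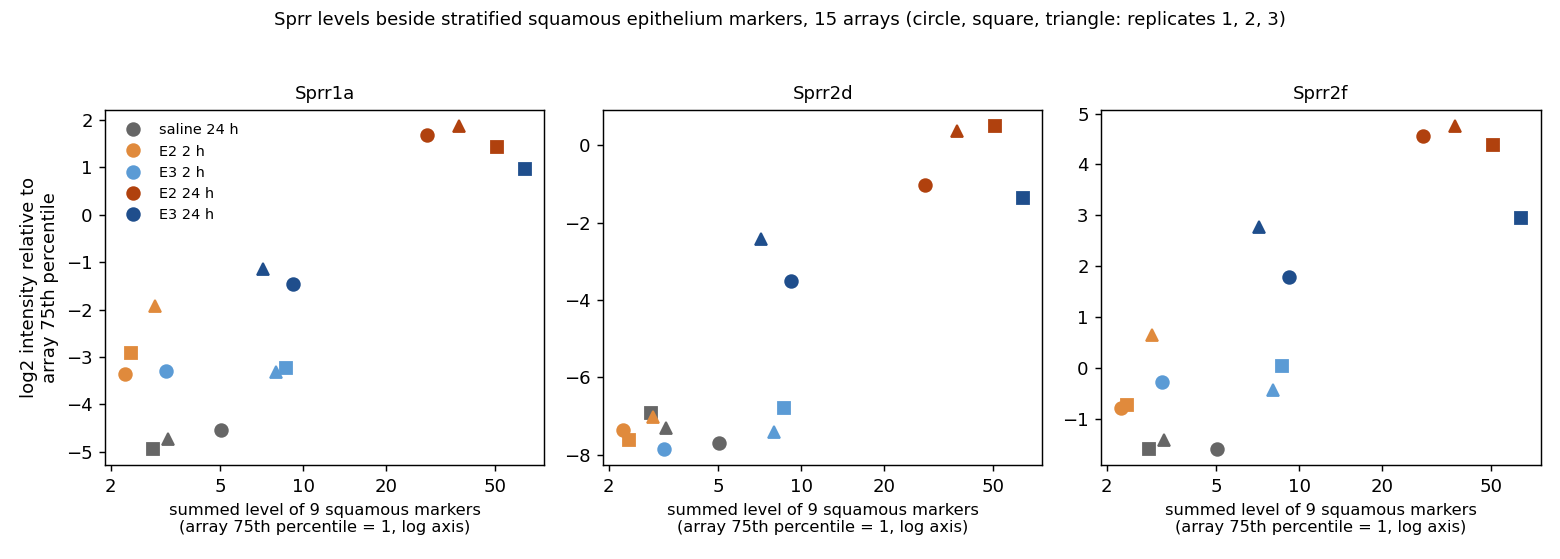
Normalized log2 intensity of *Sprr1a*, *Sprr2d*, and *Sprr2f* (y axis) against the summed level of the 9 squamous epithelium markers (x axis, log scale) on the 15 arrays, colors for groups and symbols for replicates. E3 24 hr replicate 2 (marker sum 63.9) lies to the right of every E2 24-hr array, and its *Sprr* values lie below theirs.

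The 8 uterine epithelium markers summed to 72.6 to 98.7 with saline, 149 to 160 after 24 hr of E2, and 117 to 126 after 24 hr of E3. With E2 at 24 hr 3 of the 8 were called higher and 1 lower, beside 6.93% and 11.1% of all probes, and with E3 none was in limma, beside 1.85% and 1.96%. *Krt8* was at 4.26 with saline and 5.75 with E2, whereas *Foxa2* was at 1.98 and 1.07 and *Wnt7a* at 0.41 and -0.90. Their part in the *Sprr* differences was not tested.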

How the data were processed

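Uterine RNA of 15 samples was measured on Agilent Whole Mouse Genome arrays. The authors labeled it with Cy3 and extracted the signal with Agilent Feature Extraction 9.5 (9.5.3.1 per the file headers), and the deposited intensity is the processed signal, background subtracted and not normalized between arrays. The deposited value table holds the same intensities (largest relative difference 0).

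Here, 45018 spots per array were reduced to 43379 without controls (41174 probes). Outlier spots (1893 over the 15 arrays) were left out, spots of a probe were averaged, and log2 values were taken relative to each array's 75th percentile. A probe was tested if 2 or more arrays of any 1 group showed it well above background (34776 probes). Groups were compared with limma 3.58.1 in R 4.3.3 (1 mean per group, residual degrees of freedom 10, prior 2.06) across all probes, with Benjamini-Hochberg adjustment. The calls were checked on simulated data. Dim values were bounded by the lowest signal well above background. The number of arrays limits the precision. Sequences were compared with python 3.11.15 and biopython, and figures drawn with matplotlib.

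The members and gene lists were chosen with earlier results of these data known. All member probes were named, as were pathway genes (not markers) called at 24 hr and the 5 genes most like the family, each gene by its probe of highest mean signal. Promoters and gene order come from RefSeq (GRCm38.p6) and probe positions from the array annotation (mm7). The lists were other *Sprr* genes, envelope proteins, transglutaminases, S100 genes, regulators, and markers of uterine epithelium, stroma, smooth muscle, squamous epithelium, liver, pancreas, neutrophils, red blood cells, and fat. Marker sums of neutrophils were 2.99 to 3.61 with saline, 13.7 to 16.6 with E2, and 6.49 to 14.4 with E3 at 24 hr, those of red blood cells 5.94 to 23.6 over all arrays, and those of fat 6.75 to 51.6. Some results of the regulator list are not reported here. The alternatives were normexp background correction, other scalings, other filters, other call rules, outlier spots kept, a fit without the E2 2-hr arrays, slide or replicate number as a block, and each array left out in turn.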

Additional observations from a re-analysis of the deposited data

Results flagged for a closer look

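The E3 minus E2 difference at 24 hr differed from that at 2 hr (interaction in limma) for 4 *Sprr* probes, where 4.39% of all probes were called lower. It was -1.99 for the dim *Sprr2a* probe (adjusted p = 0.0032 in limma), -1.54 for *Sprr2e* (adjusted p = 3.0e-04 in limma), -1.99 for *Sprr2g* (adjusted p = 2.6e-05 in limma), and -2.32 for *Sprr3*, whose value is no measured size. At 24 hr E3 arrays lay below E2 arrays for all 4, without overlap (21.8% of all probes), and at 2 hr the arrays of both compounds overlapped for all 4. The 4 were picked by this interaction on the same arrays, so both patterns follow in part from the choice. Nothing is read from them, and the 21.8% is of probes not picked this way. *Sprr3* was not well above background on any array but 2, both of E2 at 24 hr, and was tested through these alone. The call of the dim *Sprr2a* probe was lost in 12 of 15 fits with 1 array left out, and that of *Sprr2g* with normexp (-1.18). The 2-hr part of each value sets C57bl6/J arrays against C57bl6/Jx129 arrays from another scanner, so the interaction cannot be told apart from that change.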

How the results depend on the processing

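For single probes, 1613 of 1676 recomputed values were labeled as unchanged. For E3 against E2 and the interaction this meant the same side of the threshold, with the same direction where called. For differences from saline it meant a move smaller than the spread of replicates. Values not called could change sign, as for *Sprr2f* in E3 against E2 at 2 hr (-0.19 to 0.53 with single arrays left out). With normexp, *Sprr3* turned to 1.06 in E3 against E2 at 24 hr and to 0.86 in the interaction. In the interaction 2 probes rather than 4 were then called, with *Sprr2g* lost as well (-1.18). Of all 34766 probes, 932 were called lower in the interaction with normexp and 1525 without it. The cause was not tested. The 2-hr count called higher with E2 (1) was 2 with quantile normalization (11.7% of all probes), 3 without scaling (12%), 4 with adjusted p under 0.05 (11.6%), and 2 with no minimum change (20.1%). That with E3 (0) was 1 with quantile normalization (5.56%), 2 with adjusted p under 0.05 (5.29%), 1 with no minimum change (11.5%), 1 without the E2 2-hr arrays (4.71%), and 1 with slide as a fixed block (4.43%), a comparison within the slide that holds saline replicate 3 and the 3 E3 2-hr arrays.

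When single arrays were omitted, the counts ranged from 0 to 3 for E2 at 2 hr (0 without E2 2 hr replicate 3, 3 without E3 24 hr replicate 2), 0 to 1 for E3 at 2 hr (1 without either of these), 7 to 8 for E2 and 6 to 6 for E3 at 24 hr, 0 to 0 for E3 against E2 at 2 hr, 5 to 8 at 24 hr, and 2 to 7 for the interaction. In these fits 9.66% to 11.2% of all probes were called higher with E2 and 4.3% to 4.74% with E3 at 2 hr. At 24 hr 2095 to 2466 probes were called higher with E2 and 527 to 687 with E3. In E3 against E2, 1724 to 2109 were called lower at 2 hr and 575 to 766 at 24 hr. In the interaction 1270 to 1582 were, each of 34755 to 34776 tested. With the replicate block, 7 probes were called for E2 (6.79% of all probes) and 6 for E3 (1.78%) at 24 hr, 6 in E3 against E2 at 24 hr (2.01%), and 5 in the interaction (4.21%), with *Sprr3* lost at 24 hr (adjusted p = 0.0062 in limma) and *Sprr2d* gained in the interaction (adjusted p = 0.0040 in limma). Same-numbered arrays had r of -0.467 to 0.551 over 30 pairs (median 0.03, 10 over 0.1). All 3 pairs of E3 at 2 and 24 hr were over 0.1 (0.388, 0.115, and 0.551), and for none of the other 9 pairs of groups were all 3, so the numbers were not taken to pair the samples across the study. Signals near background limit *Sprr3*, *Sprr1b*, and the saline values of *Sprr2d*.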

Other observations

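E3 24 hr replicate 2 was the highest of its group for 8 of the 9 tested probes and replicate 1 the lowest for 8 of 9. E2 24 hr replicate 3 was the highest for 7 of 9, E2 2 hr replicate 1 the lowest for 7 of 9 and replicate 3 the highest for 6 of 9, and saline replicate 3 and E3 2 hr replicate 3 the lowest for 6 of 9 each.

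Of the upstream regions, those of *Sprr2a1* and *Sprr2a2* were identical at 250 of 250 bases, and that of *Sprr2a3* matched them at 222.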
